A study of Mus musculus with 27 samples.

Results

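The genes described here encode the subunits and assembly factors of oxidative phosphorylation, the respiratory chain and ATP synthase of mitochondria, in cultured mouse microglia. They were chosen by symbol: every row annotated as protein coding whose symbol starts with Nduf (complex I), Sdh (complex II), Uqcr (complex III), Cox4 to Cox8 (complex IV), Atp5 (ATP synthase) or mt- (encoded in mitochondrial DNA). Of 106 such rows among 23995 in the deposited table, 104 had a normalised count of at least 10 in at least 3 libraries and are the members described here. Of these, 91 are nuclear and 13 are mitochondrially encoded. The nuclear members are 37 subunits and 8 assembly factors of complex I, 4 subunits and 4 assembly factors of complex II, 8 subunits of complex III, 14 genes of complex IV and 16 of ATP synthase. The mt- members are 7 subunits of complex I, 1 of complex III, 3 of complex IV and 2 of ATP synthase. The threshold left out Ndufa4l2, which reached 10 in 2 libraries, and Cox6b2, which reached it in 0. Just inside it were Cox4i2, which reached 10 in 3 libraries, Cox6a2 in 10 and Cox7a1 in 15.

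Bulk RNA was sequenced from 27 libraries of primary microglia, the resident immune cells of the brain. The cells came from the cortices of neonatal mice, were grown as mixed glia and were shaken off the other cells. Mice were wild type (C57BL/6J) or lacked the cannabinoid receptor CB2 (CB2-/-, strain B6.Cg-Cnr2tm1Zim). Cells of both genotypes stayed unstimulated or received LPS at 100 ng/ml together with IFN-γ at 20 ng/ml, PolyI:C, or CpG at 1 nmol/ml, each for 16 h. Each stimulated group and the unstimulated CB2-/- group has 3 libraries, and unstimulated wild type has 6. The library numbers in the sample titles form an upper series, 3012 to 3023, and a lower series, 2048 to 2059 and 2186 to 2188. The upper series holds 3 unstimulated and all 9 stimulated wild-type libraries (unstimulated replicates 1 to 3). The lower series holds all 12 CB2-/- libraries and the other 3 unstimulated wild-type libraries (replicates 4 to 6). For stimulated cells, genotype and number series are therefore the same split and cannot be told apart. Each response was measured against the unstimulated libraries of its own genotype and series. Since no label says whether replicates are distinct animals or cultures, a p-value here reflects the spread between these libraries alone, which may be technical.

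Complexes I, III and IV pass electrons from NADH and succinate to oxygen and pump protons across the inner mitochondrial membrane, and ATP synthase uses that gradient to make ATP. Most subunits are encoded in the nucleus and imported, whereas a small core of complexes I, III and IV and of ATP synthase is transcribed inside the organelle from both strands of mitochondrial DNA, as long precursors that are cut into separate RNAs. Macrophages and microglia activated through Toll-like receptors and interferon are known to use more glycolysis and to respire less, and nitric oxide made by Nos2 and itaconate made by Acod1 are known inhibitors of complex IV and of complex II.

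Several mt- genes have near-identical copies in the nuclear genome, which matters for reading their values because short reads can be assigned to either. The transcripts of GENCODE M21 (GRCm38) show a run of such copies on chromosome 1. The last bases of 3 genes and of their copies follow, with capitals marking the bases that lie beyond the annotated end of the copy. Whether the nuclear sequence goes on to match past these annotated ends was not tested. For mt-Nd3 the first bases are shown, with capitals marking the substitution T3C counted from the first base.
mt-Co2: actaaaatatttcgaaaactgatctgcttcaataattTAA
Gm28661: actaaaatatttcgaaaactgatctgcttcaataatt
mt-Atp6: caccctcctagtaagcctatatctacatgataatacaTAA
Gm10925: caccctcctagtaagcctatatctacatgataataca
mt-Co3: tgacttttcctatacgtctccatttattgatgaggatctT
Gm28437: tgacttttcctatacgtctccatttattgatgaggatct
mt-Nd3: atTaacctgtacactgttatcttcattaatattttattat
Gm28438: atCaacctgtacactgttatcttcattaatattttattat
Gm28661 matched mt-Co2 (chrM:7013-7696, plus strand) over 681 of 684 bases. Gm10925 matched mt-Atp6 (chrM:7927-8607, plus strand) over 678 of 681 bases, and Gm28437 matched mt-Co3 (chrM:8607-9390, plus strand) over 783 of 784 bases. For these genes the row of the gene alone is not a measure of its RNA, and values for the sum of gene and copies are given beside it. In the file, 7 members, 5 of them mt-, have a copy annotated as a pseudogene that holds at least 25% of their 31-base words. Sharing with genes of other types was not counted and no sums were made for it. Ndufb6 shares 34.4% and Ndufa13 28.3% of their words with 1 other gene each. For Uqcrb 32.9% are shared over 3 genes and for Ndufaf2 65.1% over 177.

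A nuclear member, Ndufs5 (chr4:123712710-123718202, minus strand), which encodes a small accessory subunit of complex I, has a processed pseudogene, BC002163 (chr16:42955631-42955949, plus strand). They are identical over 317 of 319 bases, and differ by T81C and A105G, counted from the first base of the copy, with the Ndufs5 base first. Both differences lie in the coding sequence, and the window that holds them is shown with these bases in capitals.
Ndufs5: aTaagaacgccgctcggtgccacgcAtt
BC002163: aCaagaacgccgctcggtgccacgcGtt
This window is shown because the reads of the genotypes fell differently on the pair, as described below.

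Promoter windows of 300 bases, from RefSeq on GRCm38.p6, matched 77 of the 91 nuclear members. The core word of the nuclear respiratory factor NRF-1, as capitalised in the sequences below with any base at the sixth place, was searched on both strands and was present in 21 of these 77 genes, or 27.3%. It was present in 11.5% of the 9844 tested coding genes with a window and in 4.603% of all 32851 windows. The YY1 word AAGATGGC, on both strands, was in 11 of the 77 members (14.3%) and in 5.26% of the tested coding genes, and CCAAT was in 42.9% and 43.2%. The ETS word CCGGAAGT of GABP was in 6.49% of members and 9.12% of tested coding genes, and the half-site CAAGGTCA of the oestrogen-related receptors in 5.195% (4 members) and 1.3%. A match is a description of these letters and not a bound site. The 120 bases upstream of the start sites of Ndufaf4 and Sdhd are printed because both hold the NRF-1 word, in capitals, and the genes moved in opposite directions under CpG in wild type. The first lies at chr4:24897963-24898082 on the plus strand and the second at chr9:50603850-50603969 on the minus strand.
Ndufaf4: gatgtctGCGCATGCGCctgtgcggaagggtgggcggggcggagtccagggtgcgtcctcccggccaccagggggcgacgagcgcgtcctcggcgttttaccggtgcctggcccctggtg
Sdhd: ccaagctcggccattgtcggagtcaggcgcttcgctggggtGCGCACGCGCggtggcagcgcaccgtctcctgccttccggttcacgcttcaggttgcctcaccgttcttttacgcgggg

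Several libraries stand apart and bear on what follows. Summed normalised counts ran from 6341299 to 14151982 per library, and 13628 to 20643 genes were above 0. In the lower series 3 transcripts (Gm19220, Gm26822 and Grip2) held 0.0741% to 50.8% of all values, against at most 0.00453% in the upper series. They held over 10% in 6 libraries: unstimulated wild-type replicates 5 and 6, unstimulated CB2-/- replicate 3, CB2-/- LPS plus IFN-γ replicates 2 and 3 and CB2-/- PolyI:C replicate 2. The labels describe a TruSeq protocol (HiSeq1500) and, for low input, a SMART-Seq2 protocol (NextSeq500), but not the protocol of each library. Cnr2, the targeted gene, was detected in all libraries labelled CB2-/- (217 to 454). Unstimulated CB2-/- libraries had 317 to 454, above the unstimulated wild-type libraries of both series (172 to 233). In stimulated wild type it was 18.3 to 21.96 after LPS plus IFN-γ, 7.32 to 16.2 after PolyI:C and 0 to 16.1 after CpG. In stimulated CB2-/- the ranges were 217 to 234, 329 to 412 and 287 to 320. For stimulated cells this gap is also one between number series. A value per gene cannot show which stretch was deleted, so the genotype rests on the labels. None of the 10 microglial markers was at 0 in any library, and their summed value was 33157 to 111113. Of the 8 astrocyte markers, Gfap was at 0 in 1 library, Aqp4 in 3, Aldoc in 1 and S100b in 11, and the summed value was 50.7 to 2613. The 6 fibroblast and meningeal markers summed to 1.71 to 2986, with every one of them at 0 in at least 1 library. In bulk RNA, fewer cells of a type and less RNA per cell cannot be told apart.

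The balance between the mitochondrial and the nuclear members differed on average in every comparison. In each library the 13 mt- values were summed and divided by the sum of the 91 nuclear values. This ratio was 5.82, 4.66 and 5.07 in unstimulated wild type of the upper series. It was 4.14, 3.58 and 3.44 after LPS plus IFN-γ, 3.39, 3.17 and 3.17 after PolyI:C, and 3.55, 4.04 and 4.59 after CpG. All 9 stimulated wild-type libraries lay below the 3 unstimulated ones of their series. In the lower series, unstimulated wild type had 2.62, 1.71 and 2.22, below every upper library. Unstimulated CB2-/- had 1.22, 1.05 and 0.971. LPS plus IFN-γ gave 0.759, 0.846 and 0.842, PolyI:C 0.868, 0.776 and 1.05, and CpG 0.879, 0.906 and 0.913. The CB2-/- ranges did not overlap the unstimulated one except after PolyI:C. On the log2 scale the mean ratio differed from its unstimulated group by -0.48, -0.67 and -0.35 in wild type and by -0.40, -0.27 and -0.26 in CB2-/- (LPS plus IFN-γ, PolyI:C and CpG). Unstimulated CB2-/- differed from wild type of the same series by -1.001 on this scale, and the lower series differed from the upper one by -1.26 in unstimulated wild type. These ratios carry no test, since they are scores over chosen members, and the design gave 3 libraries a group.

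**Figure D1:**
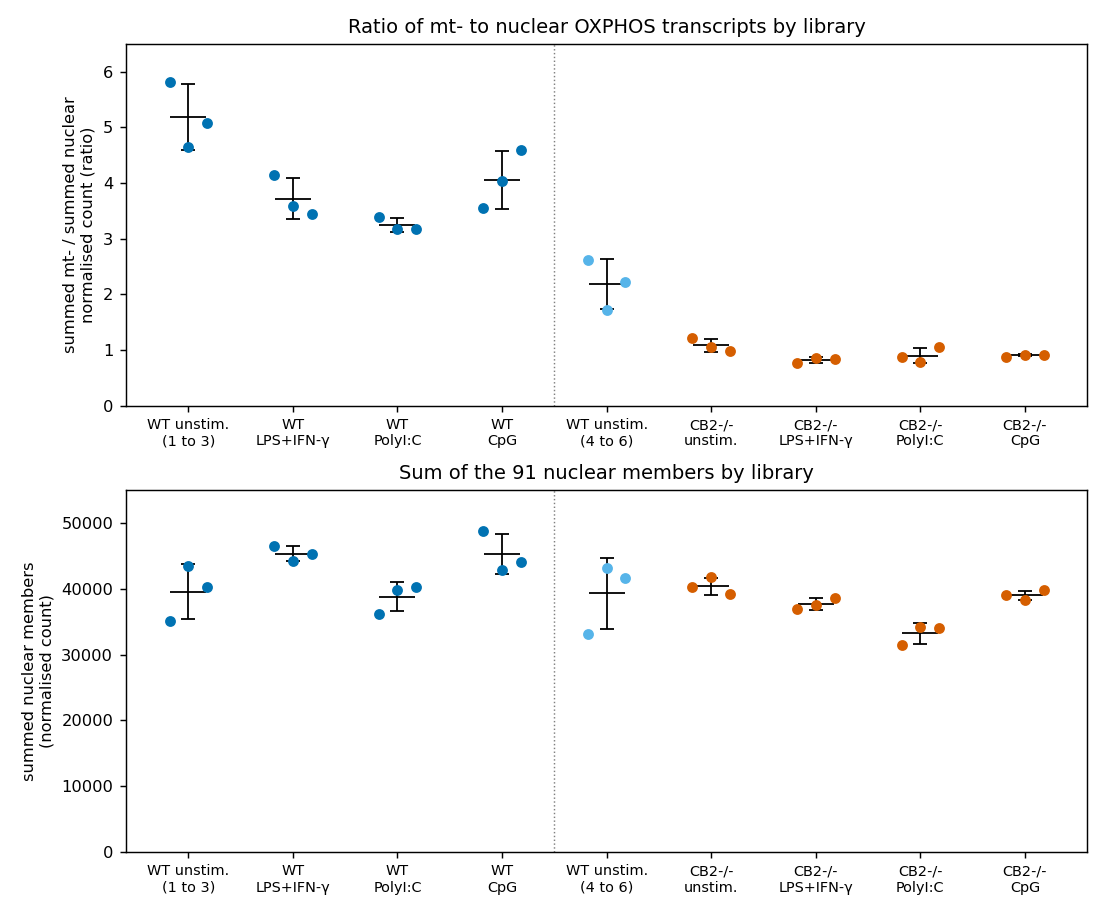
Ratio of summed mt- to summed nuclear member values in each library, and the summed normalised count of the 91 nuclear members, by group; points are libraries, lines and bars are the mean ± SD of 3 libraries, and the dotted line separates the number series. The mean ratio is highest in unstimulated wild type of the upper series (5.18 ± 0.590) and lowest in CB2-/- after LPS plus IFN-γ (0.816 ± 0.0496). These groups differ in number series, genotype and stimulus together. The nuclear sum stays between 31439 and 48763 in every library.

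The mt- sum was 202371 to 204028 in unstimulated wild type of the upper series, 73775 to 92447 in the lower series and 38036 to 48943 in unstimulated CB2-/-, with no overlap. The nuclear sums of these 3 groups were 35053 to 43457, 33176 to 43134 and 39155 to 41760, and overlap. After PolyI:C in wild type the mt- sum was 122897 to 127828, and the nuclear sum, 36221 to 40342, lay within its unstimulated range. After LPS plus IFN-γ the mt- sum was 155579 to 192965 and the nuclear sum 44210 to 46579, so on the scale of normalised counts both moved the ratio. After CpG the mt- sum was 173242 to 202583, reaching into the unstimulated range, and the nuclear sum was 42931 to 48763. As a share of all values, the mt- members held 3.09% ± 0.0508 (SD, n = 3) in unstimulated wild type of the upper series. They held 1.798% ± 0.223 after LPS plus IFN-γ, 1.39% ± 0.0657 after PolyI:C and 2.69% ± 0.307 after CpG (SD, n = 3 each). The shares were 1.04% ± 0.287 in unstimulated wild type of the lower series and 0.639% ± 0.155 in unstimulated CB2-/- (SD, n = 3 each). The nuclear members held 0.601% ± 0.0576 in unstimulated wild type of the upper series and 0.665% ± 0.039 after CpG. As a share they were lower after LPS plus IFN-γ (0.483% ± 0.0115) and PolyI:C (0.427% ± 0.0034). They held 0.469% ± 0.0362 in unstimulated wild type of the lower series and 0.587% ± 0.0913 in unstimulated CB2-/- (SD, n = 3 each). With the nuclear copies added to the mt- sum, the ratio differences kept their sign: -0.50, -0.78 and -0.33 in wild type, -0.34, -0.13 and -0.21 in CB2-/-, -1.11 between genotypes and -1.10 between series. Among the mt- genes, values per kilobase were highest for mt-Co1, the catalytic core of complex IV, at 65939 in unstimulated wild type of the upper series. They were lowest for mt-Nd3, a small subunit of complex I, at 2329, a row that shares sequence with Gm28438.

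In wild-type microglia PolyI:C lowered most mt- genes, LPS plus IFN-γ lowered some and CpG none that passed the test. In the fit over all 14668 genes with limma and Benjamini-Hochberg adjustment, 10 of 13 mt- members fell and 0 rose at adjusted p under 0.05, with a median log2 change of -1.26. For comparison, 21.2% of all genes tested rose and 19.9% fell in that contrast, with a median of -0.06. All 7 complex I members fell. LPS plus IFN-γ lowered 6 of 13, with a median of -0.46 (over all genes 21.7% rose and 18% fell, median 0.05), and CpG called 0 of 13, with a median of -0.13 (16.5% of all genes rose and 19.6% fell, median -0.09). Quantile scaling gave larger falls, with 9, 11 and 1 of 13 mt- members lower and medians of -1.33, -1.83 and -0.36 for LPS plus IFN-γ, PolyI:C and CpG. At an unadjusted limma p under 0.05, CpG also gave 0 mt- members in either direction. Some markers of other cell types moved in the same libraries, and those named were chosen after their values were seen. The 8 oligodendrocyte markers summed to 1102 to 1287 unstimulated, 249.5 to 308 after LPS plus IFN-γ, 231 to 321 after PolyI:C and 337 to 748 after CpG, with Mbp and Cspg4 called lower for each stimulus among 7 tested and Mog at 0 in 22 of the 27 libraries. The monocyte and neutrophil markers summed to 30.0 to 49.2, then 65.3 to 82.8, 235 to 358 and 264 to 379, with S100a8 called higher for each stimulus and Ly6c2 for the first pair. Ccr2, the other tested marker of that list, went the other way. It was called lower with CpG (-2.25), and its changes with LPS plus IFN-γ (-0.42) and PolyI:C (-0.77) did not pass. Of that list S100a9 was at 0 in 25 libraries and Ly6c2 in 18. Their part in the mt- changes was not tested.

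mt-Cytb, the cytochrome b of complex III (chrM:14145-15288, plus strand), has no such copy in the file and shows the pattern. Its normalised counts were 14134, 14705 and 13842 in unstimulated wild type of the upper series. They were 9505, 9112 and 8278 after LPS plus IFN-γ, 4265, 4679 and 4899 after PolyI:C, and 11369.8, 12867 and 13082 after CpG. No stimulated library reached the unstimulated ones, and the PolyI:C libraries were the lowest of the upper series. The log2 changes were -0.67 ± 0.14 (SE), -1.63 ± 0.14 and -0.20 ± 0.14, and the first pair passed the test. mt-Nd4l, a small membrane subunit of complex I (chrM:9877-10173, plus strand), had 2709.7, 2428 and 2760.0 unstimulated and 750.2, 755 and 871 after PolyI:C, which do not overlap. It changed by -1.73 ± 0.20 on the log2 scale with PolyI:C and by -0.70 ± 0.20 with LPS plus IFN-γ. Its copy Gm10222, which matches 294 of 297 bases, and Gm28439, which matches 876 of 1378 bases of mt-Nd4, were not analysed here. mt-Co1 (chrM:5328-6872, plus strand) moved least among the mt- genes that passed the test with PolyI:C, by -0.44 ± 0.12. Its values were 105175, 99845 and 100605 unstimulated and 75261, 74695 and 74509 after PolyI:C. It shares 63.9% of its 31-base words with genes in the file, mainly Gm13340 and Gm29216, and with these added its change was also -0.44.

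**Figure D2:**
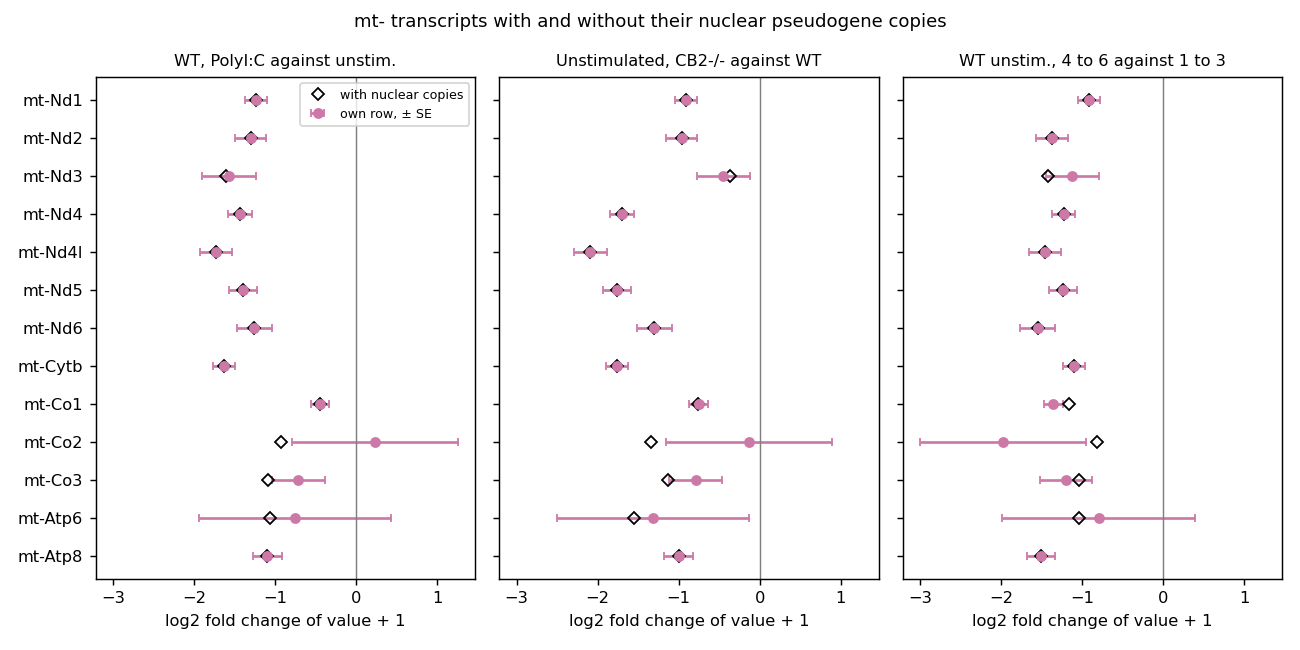
Log2 fold change of each of the 13 mt- genes in 3 comparisons; filled circles show the gene's own row with its SE, and open diamonds show the gene plus its copies, without an error, on top of the circle where no copy was added. Most genes lie between -2.09 and 0; the rows of mt-Co2 and mt-Atp6 have wide errors (SE 1.03 and 1.19), whereas their diamonds lie between -1.55 and -0.82.

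The rows of mt-Co2 and mt-Atp6 cannot be read alone. mt-Co2, the copper-binding subunit 2 of complex IV, was listed at 8947, 12524 and 6683 in unstimulated wild type and at 8651, 3498 and 20201 after CpG. The copies Gm28661 and Gm13341 together held 2.58% to 99.5% of the sum of gene and copies over the libraries. In CB2-/- PolyI:C replicate 2 the gene was at 12.2 and the copies at 2529. The sum was more even between replicates of the upper series: 20589, 22292 and 21343 unstimulated, 17385, 16324 and 16137 after LPS plus IFN-γ, then 10878, 11373 and 11473 after PolyI:C, and 21447, 21145 and 21260.5 after CpG. With the copies added, mt-Co2 changed by -0.37 with LPS plus IFN-γ and by -0.93 with PolyI:C, where its own row gave 0.13 and 0.23. mt-Atp6, the proton-channel subunit a of ATP synthase, had a log2 difference of -0.75 with PolyI:C on its own row, which did not pass, and fell by 1.06 with Gm10925 added. mt-Co3, a further core subunit of complex IV, summed with Gm28437 to 18398, 19615 and 19273 unstimulated and to 7957, 9350 and 9669 after PolyI:C (-1.09), where its own row gave -0.71, which did not pass. With copies added, 13 of 13 mt- genes fell with PolyI:C in wild type (median -1.26), 7 with LPS plus IFN-γ and 0 with CpG.

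**Figure D3:**
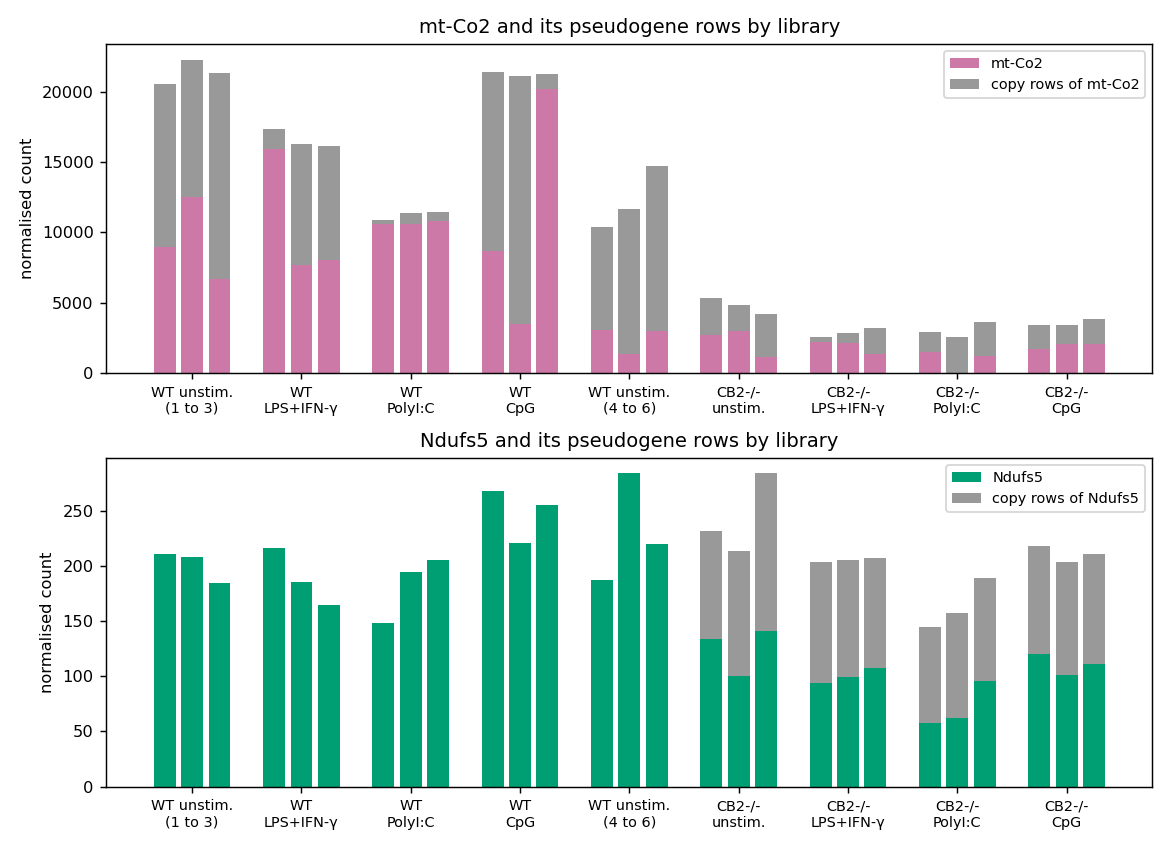
Stacked normalised counts per library of mt-Co2 and its copies, and of Ndufs5 and its copy BC002163, in all 27 libraries. The split between mt-Co2 and its copies varies from library to library within a group more than the sum does, and BC002163 has values only in the 12 CB2-/- libraries.

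LPS plus IFN-γ raised more nuclear members of wild-type microglia than it lowered, with complex IV contributing the most. Of 91 nuclear members 22 rose (24.2%, beside 21.7% of all genes) and 5 fell (5.49%, beside 18%), with a median log2 change of 0.10 beside 0.05 over all genes. The share that rose is near that of all genes. By complex, 9 of 14 complex IV members rose and 1 fell, 5 of 37 complex I subunits rose and 3 fell, and 4 of 16 ATP synthase members and 2 of 8 complex III members rose. The split depends on the scaling: with quantile scaling 9 rose and 13 fell, and the median over all genes shifted from 0.05 to -0.06. With PolyI:C the nuclear members went more often down, with 7 up (7.69%, beside 21.2% of all genes) and 15 down (16.5%, beside 19.9%; median -0.14), and 4 up and 19 down with quantile scaling. Of the complex I subunits 2 rose and 7 fell. CpG raised 18 (19.8%, beside 16.5% of all genes) and lowered 6 (6.59%, beside 19.6%; median 0.14), with 16 and 5 under quantile scaling, which moved the median over all genes from -0.09 to 0.05.

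**Figure D4:**
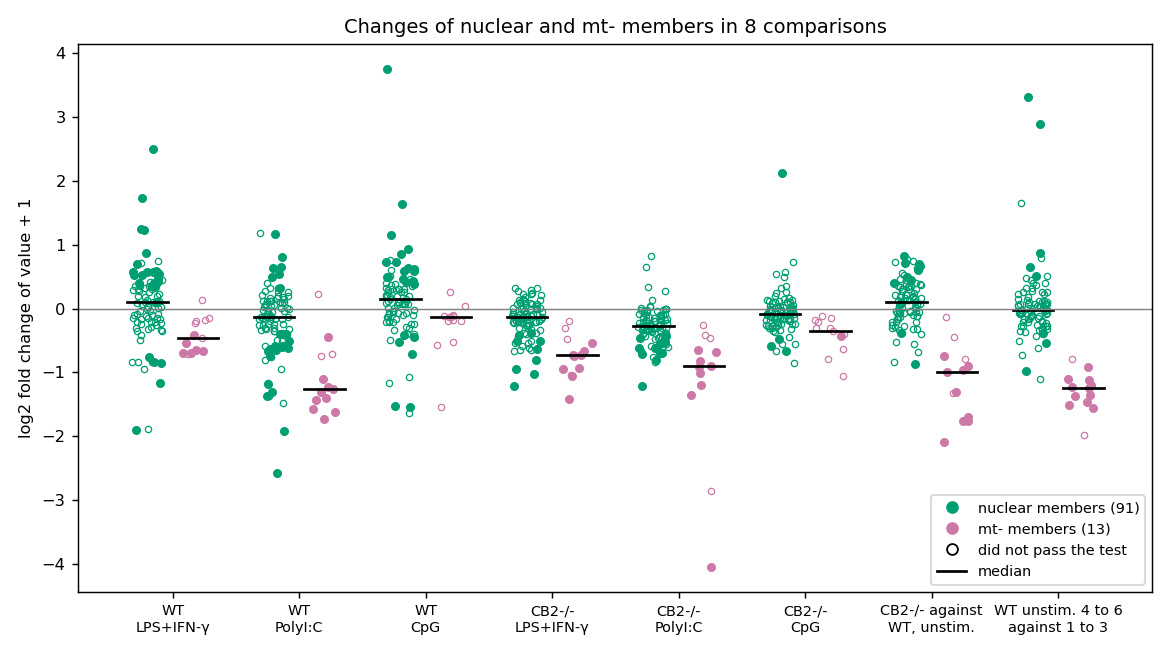
Log2 fold change of the 91 nuclear and 13 mt- members in 8 comparisons, each against its reference group; each point is a gene, filled where limma's adjusted p was under 0.05, and black marks are medians. Nuclear medians lie between -0.27 and 0.14, and mt- medians between -1.26 and -0.13.

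Complex I lost RNA of some membrane-arm subunits and gained Ndufs4. Other membrane-arm subunits rose. Ndufb9 was called higher with PolyI:C, a call lost in 4 of 6 fits that left out a library, and Ndufb6 with CpG (0.50 ± 0.16). Ndufb11, a membrane-arm subunit, had 370.4, 430.4 and 364 unstimulated and 113, 170.4 and 169.6 after PolyI:C. It changed by -1.38 ± 0.17 with PolyI:C (limma with Benjamini-Hochberg adjusted p = 3.72e-07) and by -0.85 ± 0.17 with LPS plus IFN-γ (adjusted p = 2.54e-04). Its neighbour in the membrane arm, Ndufb10, changed by -1.19 ± 0.20 and -0.84 ± 0.20, and both were lower in every stimulated library of these groups. Ndufs1, the largest iron-sulphur subunit of the matrix arm, fell with PolyI:C (-0.66 ± 0.15), and Ndufv1, its partner at the NADH site, did not pass the test in wild type (-0.10, -0.17 and 0.01). Ndufs4, an accessory subunit of the NADH-binding module whose loss destabilises complex I, went the other way. It had 99.3, 168 and 152 unstimulated, 344, 336 and 300.0 after LPS plus IFN-γ, 332, 291 and 306 after PolyI:C, and 307, 129.9 and 240.4 after CpG. The first pair of stimulated groups does not overlap the unstimulated group, and CpG replicate 2 lies inside it. Ndufs4 rose by 1.25 ± 0.24 and 1.18 ± 0.24 on the log2 scale (adjusted p = 1.98e-04 and 3.76e-04, limma with Benjamini-Hochberg adjustment).

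Assembly factors of complex I moved by larger steps, at low values. Ndufaf7, an arginine methyltransferase that acts on a core subunit, had 54.6, 74.0 and 75.3 unstimulated, 18.3, 17.1 and 16.6 after LPS plus IFN-γ and 4.72, 14.4 and 15.9 after PolyI:C. It fell by 1.90 ± 0.35 and 2.58 ± 0.35 on the log2 scale, and was singled out after its values were seen. Ndufaf4, which acts early in assembly, rose with CpG, from 46.2, 79.8 and 53.6 to 133, 261 and 178 (1.64 ± 0.50, limma with Benjamini-Hochberg adjusted p = 0.0123). That call was lost without unstimulated wild-type replicate 1 or CpG replicate 2.

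In complex II, both membrane anchors were called in wild type, in opposite directions under CpG. Sdhd had 696, 792 and 806 unstimulated, 913, 911 and 934 after LPS plus IFN-γ, 458, 599 and 557 after PolyI:C, and 384, 527 and 501 after CpG. It fell under PolyI:C (-0.51 ± 0.14) and under CpG (-0.71 ± 0.14, adjusted p = 2.01e-04, limma with Benjamini-Hochberg adjustment), and its change with LPS plus IFN-γ, 0.27, did not pass. The other anchor, Sdhc, rose with LPS plus IFN-γ (0.42 ± 0.13) and with CpG (0.44 ± 0.13). The catalytic subunits Sdha and Sdhb passed in none of the 3 (log2 changes of -0.38 to 0.31). Of the assembly factors, Sdhaf2, which helps attach the flavin, rose with LPS plus IFN-γ (0.41 ± 0.13), and Sdhaf4 fell with CpG (-1.53 ± 0.46).

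In complex III, Uqcrb, a subunit at the ubiquinone site, rose with all 3 stimuli, by 0.57 ± 0.15, 0.66 ± 0.15 and 0.73 ± 0.15. Uqcrh, the hinge protein between cytochromes c1 and c, fell with PolyI:C (-0.74 ± 0.14) and CpG (-0.41 ± 0.14). The core protein Uqcrc1 rose with CpG (0.59 ± 0.17), and Uqcrc2 and the Rieske protein Uqcrfs1 passed with none (-0.35 to 0.32). For ATP synthase, the catalytic beta subunit Atp5b had 2306, 3558 and 3181 unstimulated and 5675, 5452 and 5138 after LPS plus IFN-γ. It changed by 0.87 ± 0.12, 0.64 ± 0.12 and 0.86 ± 0.12, but with quantile scaling by -0.06 with LPS plus IFN-γ and -0.24 with PolyI:C, so these 2 directions depend on the scaling. The alpha subunit Atp5a1 passed with none (0.29, 0.11 and 0.31).

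In complex IV, a pair of related genes moved in opposite directions. Cox7a2, the widely expressed isoform of a small complex IV subunit, had 230.3, 369 and 375 unstimulated, 802, 702 and 742 after LPS plus IFN-γ, 594, 541 and 537 after PolyI:C, and 561, 521 and 497 after CpG. Its related protein Cox7a2l, known as an assembly factor of the complex III and IV supercomplex, had 1209.9, 1309 and 1418 unstimulated, then 607, 539.9 and 594, 502, 496 and 590.3, and 435, 442 and 474. All 9 stimulated libraries lay above the unstimulated ones for Cox7a2 and below them for Cox7a2l. Cox7a2 rose by 1.23 ± 0.17, 0.81 ± 0.17 and 0.73 ± 0.17 (adjusted p = 1.49e-06, 3.28e-04 and 0.00126, limma with Benjamini-Hochberg adjustment). Cox7a2l fell by 1.17 ± 0.12, 1.31 ± 0.12 and 1.54 ± 0.12 (adjusted p = 2.53e-08, 4.02e-09 and 4.32e-10, limma with Benjamini-Hochberg adjustment). Neither call was lost when any single library was left out. Cox5a and Cox5b, which both contact the catalytic core, rose with LPS plus IFN-γ (0.41 and 0.57) and CpG (0.62 and 0.38), and Cox4i1, the common isoform of subunit 4, fell with PolyI:C (-0.41 ± 0.15), with groups that overlap. Cox7b, a further small subunit, rose with CpG (0.94 ± 0.25) and with LPS plus IFN-γ (0.70 ± 0.25), and the second call was lost without unstimulated replicate 1 or 2 or stimulated replicate 1 or 2.

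The tissue-restricted isoforms were near 0 and need reading as such. Cox6a2, the heart and muscle isoform of subunit 6a, had 3.28, 3.36 and 0 unstimulated and 36.4, 43.9 and 26.4 after CpG. It rose by 3.76 ± 0.65 on the log2 scale with a pseudocount of 1 (adjusted p = 5.91e-05, limma with Benjamini-Hochberg adjustment). In CB2-/- it went from 3.73, 3.84 and 12.6 to 22.7, 30.1 and 33.9 (2.12 ± 0.65, adjusted p = 0.0272), with no overlap in either genotype, and the difference between the responses was -1.63 (adjusted p = 0.284, limma with Benjamini-Hochberg adjustment). The common isoform Cox6a1 had log2 differences of 0.21 and -0.04 with CpG, which did not pass. Cox4i2, the hypoxia-linked isoform of subunit 4, was listed at 0 in the 3 unstimulated wild-type libraries of the upper series and at 5.00, 3.10 and 6.37 after LPS plus IFN-γ. Those values are below the threshold of 10, and no fold is given.

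**Figure D5:**
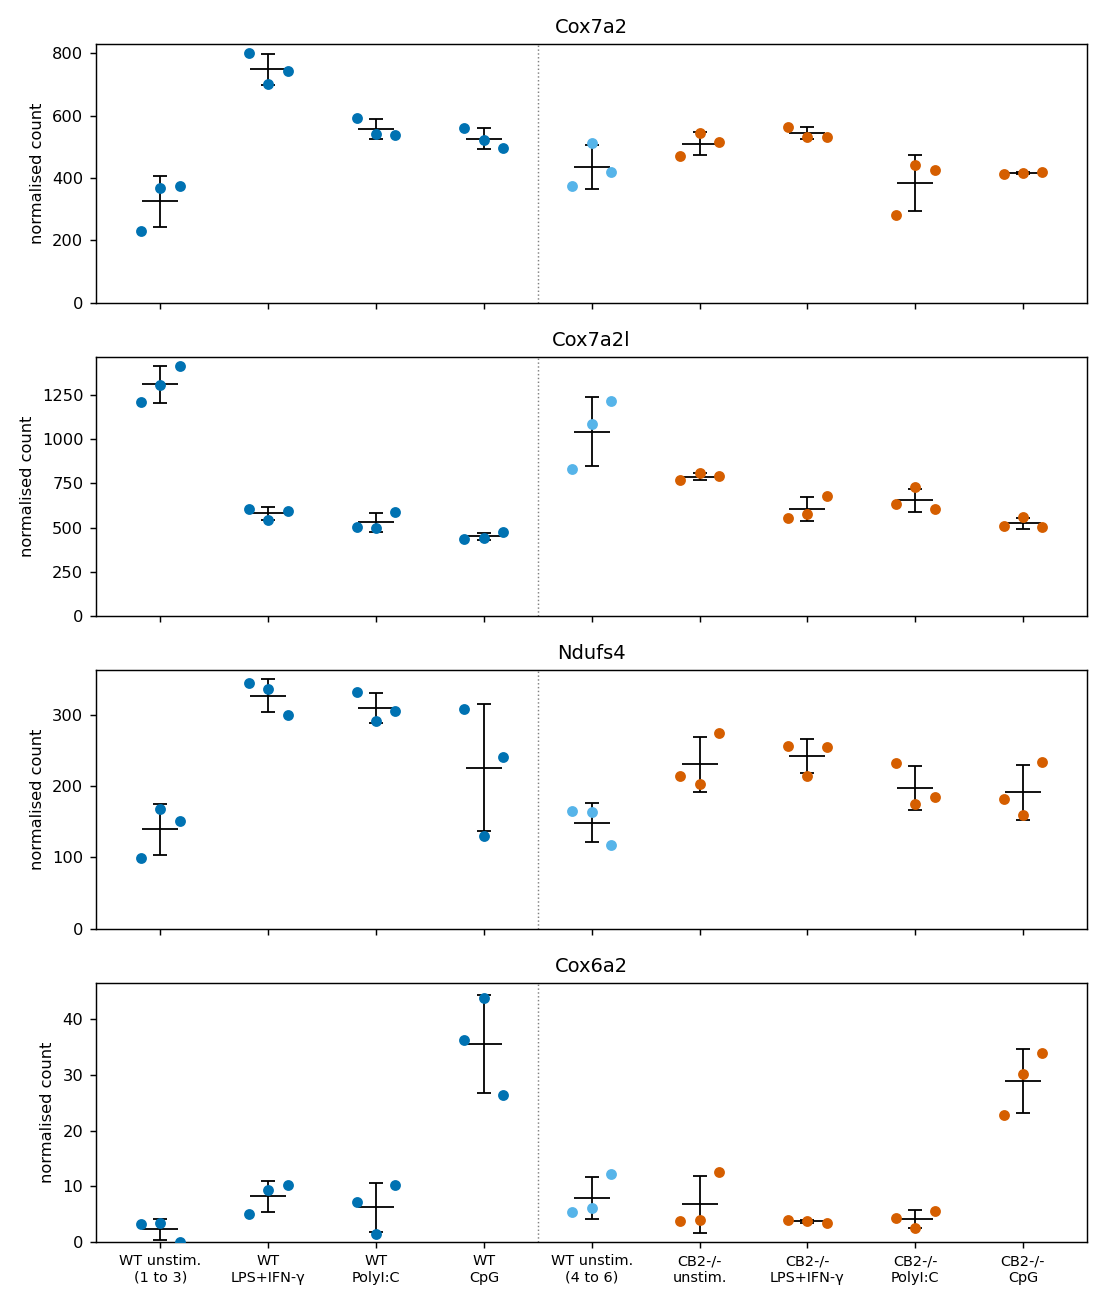
Normalised counts per library of Cox7a2, Cox7a2l, Ndufs4 and Cox6a2 by group; points are libraries, lines and bars the mean ± SD of 3 libraries. In the upper series every stimulated wild-type library is above the unstimulated ones for Cox7a2 and below them for Cox7a2l, and Cox6a2 is raised with CpG in both genotypes.

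In CB2-/- microglia the nuclear members that passed the test fell, with a single exception. With LPS plus IFN-γ limma called 0 higher and 9 lower (2 and 14 at an unadjusted p under 0.05; median -0.13). Over all genes 12.8% rose and 10.9% fell (median 0.03), so the share that fell, 9.89%, is near the background. With PolyI:C it called 0 and 11 (0 and 34 unadjusted; median -0.27), and the 12.1% that fell stand beside 3.44% of all genes, of which 5.11% rose (median 0.01). With CpG it called 1 and 3 (median -0.08), where 6.82% of all genes rose and 7.44% fell (median 0.00). The 1 that rose was Cox6a2. Complex I subunits made up 5 of the 9 and 5 of the 11. Ndufb2, of the membrane arm, had 94.4, 129.7 and 88.9 unstimulated and 48.6, 51.9 and 50.0 after LPS plus IFN-γ, which do not overlap. It changed by -1.02 ± 0.22 (adjusted p = 9.19e-04, limma with Benjamini-Hochberg adjustment). Ndufa12, an accessory subunit of the matrix arm, had 258, 203 and 221 unstimulated and 144, 52.1 and 120.2 after PolyI:C (-1.22 ± 0.26), and Ndufb11 fell with LPS plus IFN-γ (-0.64 ± 0.17) and PolyI:C (-0.71 ± 0.17). Without the 6 libraries rich in the 3 transcripts, which leaves 2 unstimulated, 1 LPS plus IFN-γ and 2 PolyI:C CB2-/- libraries, 1 nuclear member passed with LPS plus IFN-γ and 4 with PolyI:C. Leaving out single libraries gave 4 to 7 and 5 to 8, so these counts depend on which libraries are used. The lowest counts came without unstimulated CB2-/- replicate 2 (4, LPS plus IFN-γ) and without CB2-/- PolyI:C replicate 1 (5).

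The mt- members also fell in stimulated CB2-/- cells, from a lower start. With LPS plus IFN-γ 9 of 13 fell, with PolyI:C 9 and with CpG 1, and 0 rose (medians -0.73, -0.90 and -0.35). Over all genes 10.9%, 3.44% and 7.44% fell and 12.8%, 5.11% and 6.82% rose in these contrasts. The 1 of 13 with CpG is near the share of all genes that fell. mt-Cytb had 2162, 2025 and 1731 unstimulated, 1101, 1169.8 and 1277 after LPS plus IFN-γ, 1169.9, 978 and 1583 after PolyI:C, and 1319, 1503 and 1564 after CpG. No stimulated library reached the unstimulated range, and the changes were -0.73, -0.69 and -0.43 (SE 0.14 each), all past the threshold. The CpG call of mt-Cytb, the single mt- call there, was lost without unstimulated CB2-/- replicate 1 or 2 or CpG replicate 1 or 2. mt-Nd1, a core subunit of the membrane arm (chrM:2751-3707, plus strand), had 4168, 3472 and 3371 unstimulated and 1572, 1775 and 1967 after LPS plus IFN-γ (-1.05 ± 0.14). The rows of mt-Co2 (-2.86) and mt-Atp6 (-4.05) with PolyI:C rest on libraries in which the copies held nearly all of the sum, and with the copies added the changes were -0.68 and -0.53. Without unstimulated CB2-/- replicate 1, 5 mt- members passed with PolyI:C. Without the 6 rich libraries, 9 fell with LPS plus IFN-γ and 8 with PolyI:C.

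The responses of the genotypes differed for some members, and each such difference is also a difference between number series. Of 91 nuclear members the test of the difference called 1 higher and 7 lower in CB2-/- with LPS plus IFN-γ (over all genes 3.98% and 8.36%). It called 5 higher and 10 lower with PolyI:C (10.8% and 13.9% of all genes) and 1 higher and 5 lower with CpG (6.11% and 5.66%). The shares of nuclear members called are near or below those of all genes for each stimulus and direction. The counts depend on single libraries. For LPS plus IFN-γ 5 were called without unstimulated wild-type replicate 1, wild-type LPS plus IFN-γ replicate 1 or unstimulated CB2-/- replicate 3. For CpG 12 were called without unstimulated wild-type replicate 2 and 13 without wild-type CpG replicate 3. With library weights 29, 29 and 20 were called. Cox7a2 and Cox7a2l were called for all 3 stimuli. The 3 tests use the same unstimulated libraries of each genotype. A gap between these libraries enters every difference, and recurrence over the stimuli is not independent. Cox7a2 had 472, 544 and 515 in unstimulated CB2-/- and 565, 532 and 532 after LPS plus IFN-γ, which overlap. Its CB2-/- response was lower than the wild-type one by -1.14 ± 0.24, -1.25 ± 0.24 and -1.02 ± 0.24 (adjusted p = 0.00159, 2.86e-04 and 0.00529, limma with Benjamini-Hochberg adjustment). Cox7a2l went from 767, 807 and 791 to 552, 579 and 681 with LPS plus IFN-γ in CB2-/- (-0.39 ± 0.12). The difference in response was 0.78 ± 0.17, 1.04 ± 0.17 and 0.95 ± 0.17 (adjusted p = 0.00311, 7.16e-05 and 6.35e-04, limma with Benjamini-Hochberg adjustment). Both genes thus moved less in the CB2-/- libraries. Atp5b, at 0.00, -0.36 and 0.11 in CB2-/-, and Atp5j2, a small ATP synthase subunit of the membrane part, were also called for all 3, with differences of -0.87, -1.01 and -0.75 for Atp5b and -0.93, -0.73 and -0.83 for Atp5j2. Ndufs4 differed with LPS plus IFN-γ (-1.18 ± 0.35) and PolyI:C (-1.40 ± 0.35), and its CpG difference of -0.91 did not pass (adjusted p = 0.0908, limma with Benjamini-Hochberg adjustment).

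Of the 13 mt- members the difference in response was called for 1 (lower), 5 (higher) and 1 (lower). Over all genes 8.36% were lower, 10.8% higher and 5.66% lower in these contrasts. With PolyI:C the 5 were mt-Nd4, mt-Nd4l, mt-Nd5, mt-Nd6 and mt-Cytb, all of which fell less in CB2-/- (0.78, 0.83, 0.94, 0.84 and 0.94). Counts of 3 came without unstimulated wild-type replicate 1 or 3, wild-type PolyI:C replicate 2 or unstimulated CB2-/- replicate 3. The mt-Nd6 call was lost in 9 of 12 fits that left out a library, and the mt-Nd4l call in 6 of 12. Without a series term 1 mt- member was called, as lower, and the median difference went from 0.28 to -0.31. All 5, a grouping seen after the values, lie in the last stretch of the mitochondrial map, from 9877 to 15288, and mt-Nd6 is read from the minus strand (13552 to 14070). With LPS plus IFN-γ and with CpG the call was mt-Nd1, which fell further in CB2-/- with LPS plus IFN-γ (-0.64) and differed by -0.66 with CpG. Each was lost in at least 6 of 12 fits that left out a library.

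Unstimulated CB2-/- microglia had less mitochondrially encoded RNA than unstimulated wild type of the same number series. Of 13 mt- members 9 fell and 0 rose (median -1.002; over all genes 6.25% rose and 3.65% fell, median -0.05). mt-Cytb was at 6059, 6103 and 7948 in these wild-type libraries and at 2162, 2025 and 1731 in CB2-/- (-1.76 ± 0.14). mt-Nd4l was at 1041, 765 and 1089.9 and at 277, 236 and 169 (-2.09 ± 0.20). The groups did not overlap for either. With copies added, the log2 differences of the genes from mt-Nd1 to mt-Nd3 on the map ran from -1.55 (mt-Atp6) to -0.36 (mt-Nd3, which did not pass), and those from mt-Nd4l to mt-Cytb from -2.09 (mt-Nd4l) to -1.30 (mt-Nd6). These ranges overlap, and the grouping was made after the values were seen. In all, 12 of 13 fell with copies added (median -1.30), and without the 6 rich libraries 8 did. Whether wild-type libraries 2186 to 2188 were prepared together with the CB2-/- libraries is not given in the sources used here. Summed astrocyte markers were 1498 to 2613 in these wild-type libraries and 189 to 299 in CB2-/-, and fibroblast and meningeal markers 685 to 2464 and 55.8 to 101. Of 7 tested astrocyte markers 1 was called lower and of 6 fibroblast markers 0 (medians -2.39 and -3.46), and their part in the difference was not tested.

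Among nuclear members 8 were higher (8.79%, beside 6.25% of all genes) and 2 lower (2.2%, beside 3.65%) in unstimulated CB2-/-, shares near those of all genes (median 0.10). Ndufb6, of the membrane arm of complex I, had 115, 117 and 131 in wild type and 243, 235 and 174 in CB2-/- (0.83 ± 0.16, adjusted p = 0.00162, limma with Benjamini-Hochberg adjustment). It shares 34.4% of its 31-base words with 1 other gene, whose values were not added. Ndufab1, the mitochondrial acyl carrier protein that also sits in complex I, rose by 0.71 ± 0.15, Uqcrb by 0.67 ± 0.15 and Atp5b by 0.49 ± 0.12. Without the 6 rich libraries, which leaves 1 wild-type library of the lower series, limma called 0 nuclear members (18 higher and 1 lower at an unadjusted p under 0.05). Without wild-type replicate 4, 7 were higher and 10 lower.

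Ndufs5 was the lowest of these on its own row, and the copy changes that reading. Ndufs5 had 188, 284 and 220.1 in wild type of the lower series and 134, 100.1 and 141 in CB2-/- (-0.87 ± 0.20, adjusted p = 0.00648, limma with Benjamini-Hochberg adjustment). BC002163, whose window is printed above, was at 0 in all 15 wild-type libraries and at 87.2 to 143 in all 12 CB2-/- libraries, where it held 42.2% to 60.5% of the pair. The sum was 231, 213 and 284 in CB2-/-, which overlaps the wild-type values, and its log2 difference was 0.09 (adjusted p = 0.816, limma with Benjamini-Hochberg adjustment). Ndufs5 lies on chromosome 4, 12.2 Mb from Cnr2 (chr4:135895394-135920207), and the copy on chromosome 16. Which bases the reads carried at T81C and A105G was not tested, as only values per gene were used.

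The same genotype and treatment gave different mt- values in the number series. In unstimulated wild type, 11 of 13 mt- members were lower in the lower series and 0 higher (median -1.24; over all genes 6.33% were higher and 5.66% lower, median 0.00), and with copies added 13 of 13 were (median -1.23). mt-Cytb differed by -1.10 ± 0.14, mt-Co1 by -1.35 ± 0.12 (105175, 99845 and 100605 against 39238, 36622 and 43926, and by -1.17 with copies added) and mt-Nd6 by -1.55 ± 0.22. No library of either series overlapped the other for mt-Cytb and mt-Co1. Its median stands beside -1.26 for PolyI:C in wild type, and both are measured from the same 3 unstimulated libraries. Summed astrocyte markers were 205, 980 and 332 in the upper series and 1498, 2613 and 1961 in the lower one, without overlap, but no single astrocyte marker passed the test. Summed microglial markers were 93751, 111113 and 104254 in the upper series and 58773, 72148 and 71740 in the lower one, also without overlap. Aif1 (-1.71), C1qa (-1.19), Csf1r (-1.08) and Cx3cr1 (-0.73) were called lower and Itgam (0.51) higher, and the other microglial markers did not pass. The part of these markers in the difference was not tested. Any direct comparison of stimulated wild-type with stimulated CB2-/- cells contains this gap. Nuclear members differed less, with 5 higher and 3 lower (median -0.02). Ndufa4, named for complex I and now placed in complex IV, was lower (-0.98 ± 0.19, adjusted p = 9.22e-04, limma with Benjamini-Hochberg adjustment), and Atp5d, the delta subunit of the ATP synthase rotor, higher (0.86 ± 0.19). Cox7a1, the heart and muscle counterpart of Cox7a2, was at 0, 3.38 and 9.27 in the upper series and at 26.5, 22.2 and 27.8 in the lower one. It was between 19.9 and 71.4 in all 12 CB2-/- libraries, and at most 6.70 in stimulated wild type. Without wild-type replicate 4 the nuclear count was 15, with 13 higher, and without replicate 1 or 5 or the rich libraries more were lower than higher.

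Other genes of energy metabolism, from lists of known pathway genes, were counted in the same fits, and their shares are read beside those of all genes (21.7%, 21.2% and 16.5% higher and 18%, 19.9% and 19.6% lower in wild type for LPS plus IFN-γ, PolyI:C and CpG). Of 19 glycolysis and glucose uptake genes, 18, 17 and 13 rose in wild type (94.7%, 89.5% and 68.4%) and 0 fell (medians 1.96, 1.55 and 0.83). In CB2-/- 7, 5 and 3 rose (36.8%, 26.3% and 15.8%, beside 12.8%, 5.11% and 6.82% of all genes), and the test of the difference called 15, 13 and 3 lower and 0, 0 and 1 higher. Slc2a1, the glucose transporter GLUT1, rose by 2.84 ± 0.22, 2.46 ± 0.22 and 1.27 ± 0.22 in wild type. The unstimulated wild-type libraries themselves differed for this list, with 17 of 19 genes higher in the lower series (median 1.66). Of 18 TCA cycle genes, LPS plus IFN-γ raised 3 and lowered 3, PolyI:C raised 3 and lowered 4, and CpG raised 9 and lowered 1 in wild type. The first pair (16.7% and 16.7%, 16.7% and 22.2%) lies near the shares of all genes, and 50% rose with CpG. Idh3a, a subunit of NAD-dependent isocitrate dehydrogenase, rose with CpG by 1.43 ± 0.23 in wild type. All 4 nitric oxide and itaconate enzymes rose with each stimulus in wild type, among them Nos2 (13.39, 10.11 and 4.89) and Acod1 (8.01, 7.48 and 4.57). Nos2 is a log2 value with a pseudocount of 1 and depends on it. In CB2-/- it changed by 4.46, 2.40 (which did not pass) and 2.87. Between the series of unstimulated wild type, Nos2 (6.08) and Gch1 (0.90) were higher in the lower series. Ass1 was lower there (-1.18), and Acod1 did not pass (0.76).

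Genes that make, cut or degrade mitochondrial RNA were read beside the mt- members. Over all genes 21.7%, 21.2% and 16.5% rose and 18%, 19.9% and 19.6% fell in wild type for LPS plus IFN-γ, PolyI:C and CpG. For the first list below, the share that fell with LPS plus IFN-γ is near that of all genes. Of 14 genes of mitochondrial transcription and replication, the wild-type response to LPS plus IFN-γ had 1 higher and 3 lower, that to PolyI:C 1 and 4 and that to CpG 1 and 1, and limma called 0 in each CB2-/- response (3, 1 and 1 at an unadjusted p under 0.05). The mitochondrial RNA polymerase Polrmt fell with LPS plus IFN-γ (-0.79 ± 0.28) and PolyI:C (-1.02 ± 0.28), Tfb2m, its initiation factor, by -1.32 ± 0.31 and -1.20 ± 0.31, and Tfam did not pass (-0.10, 0.15 and -0.19). Of 16 genes of RNA processing and turnover 4 rose and 4 fell, 3 and 3, and 6 and 0. For LPS plus IFN-γ and PolyI:C the shares of this list (25% and 25%, 18.8% and 18.8%) lie near those of all genes, and for CpG 37.5% rose. Pnpt1, a mitochondrial polynucleotide phosphorylase, rose by 1.48 ± 0.19 and 2.18 ± 0.19 with LPS plus IFN-γ and PolyI:C, and Lrpprc, which stabilises mt- messenger RNAs, changed by -0.97 ± 0.22 and -1.01 ± 0.22. Of 11 electron carriers, carriers of ADP and related membrane proteins, 4 rose and 5 fell with LPS plus IFN-γ in wild type, 1 and 5 with PolyI:C, then 2 and 3 with CpG. Those that fell with all 3 stimuli, named after their values were seen, were Ucp2, an inner-membrane carrier (-1.80, -2.30 and -2.45), Atpif1, the inhibitor of ATP synthase (-1.34, -1.78 and -1.05), and Etfdh, which passes electrons to ubiquinone (-0.90, -0.69 and -0.72). Cycs, the cytochrome c that carries electrons from complex III to IV, rose with all 3 stimuli in wild type (2.23, 2.43 and 2.14, SE 0.26), and in CB2-/- with LPS plus IFN-γ (0.74), where PolyI:C (0.05) and CpG (0.25) did not pass. Of 41 genes of the mitochondrial ribosome 9, 9 and 16 rose (22%, 22% and 39%) and 2, 2 and 1 fell in wild type, the first pair at shares near those of all genes. In CB2-/- 2, 0 and 2 rose, and the test of the difference called 3, 7 and 4 lower and 0 higher (over all genes 8.36%, 13.9% and 5.66% lower). Their part in the mt- changes was not tested.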

How the data were processed

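The submitters' processing notes name CASAVA 1.8, kallisto and DESeq2 without role or order. Build and annotation were not given in the sources used here. Deposited by the authors were 1 table of normalised counts (a signal that is not whole numbers) for 27 libraries, and 1 batch-corrected table on a scale close to log2, whose removed batches are not given and which was used only as an alternative. Whole reads could not be recovered, so no count model was run. Gene IDs matched GENCODE M21 for 23950 of 23995 rows, and for all 104 members.

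Values were tested as log2(value + 1) with limma 3.58.1 (R 4.3.3, moderated with a mean-variance trend, two-sided) over the 14668 rows with at least 10 in at least 3 libraries, in 1 fit of 9 cells (group by number series). P-values were adjusted by Benjamini-Hochberg over all 14668 genes, and called under 0.05. Fold changes are on this log2 scale and understate changes of low genes. Named nuclear members are up to 6 called genes with the highest and 6 with the lowest change per comparison, where the higher group averaged 100 or more and the groups did not overlap, plus a panel of isoforms and catalytic subunits; all mt- members are named, and the first 4 tested genes of each pathway list may be. Pathway and marker lists, and the members themselves, were chosen with earlier results of these data known. Copies are rows annotated as pseudogenes, found from shared 31-base words of transcripts. The scripts were tested on simulated data. Alternatives were a pseudocount of 8, no filter, quantile scaling, library weights, no series term, only the compared libraries, the batch-corrected table and leaving out each library; adding pseudogene copies and leaving out 6 libraries were chosen after seeing the data. Reads per library are unknown, so no counting intervals are given.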

Additional observations from a re-analysis of the deposited data

Results flagged for a closer look

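In the 6 unstimulated wild-type libraries, a single library lay far above the others for 2 of the 45 results checked. Cox7b, a small complex IV subunit, reached 724 in replicate 5, and Ndufs5, an accessory subunit of complex I, reached 284 in the same library, one of those rich in 3 transcripts. Chance alone marks about 1 in 20 such groups.

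The other entries are members whose response differed between the genotypes by the test of the difference itself (limma, Benjamini-Hochberg adjusted p under 0.05, CB2-/- response minus wild-type response, log2). Number series and genotype cannot be told apart in these differences. With LPS plus IFN-γ the differences were -1.18 for Ndufs4, -1.14 for Cox7a2, -0.93 for Atp5j2, -0.87 for Atp5b, -0.64 for mt-Nd1, -0.61 for Atp5j, -0.59 for Sdhc, -0.56 for Atp5g3 and 0.78 for Cox7a2l. With PolyI:C the lower CB2-/- responses were Ndufs4 (-1.40), Cox7a2 (-1.25), Atp5b (-1.01), Uqcrb (-0.98), Atp5f1 (-0.76), Atp5j2 (-0.73), Ndufab1 (-0.72), Cox7c (-0.56), Cox5a (-0.56) and Sdhc (-0.52). The higher ones were Ndufb11 (0.67), mt-Nd4 (0.78), mt-Nd4l (0.83), mt-Nd6 (0.84), mt-Cytb (0.94), mt-Nd5 (0.94), Ndufb10 (0.97), Cox7a2l (1.04), Ndufaf2 (1.72) and Ndufaf7 (1.97). With CpG the differences were -1.02 for Cox7a2, -0.83 for Atp5j2, -0.75 for Atp5b, -0.74 for Uqcrb, -0.73 for Ndufab1, -0.66 for mt-Nd1 and 0.95 for Cox7a2l. ATP synthase genes Atp5b and Atp5j2 and the related genes Cox7a2 and Cox7a2l appear under all 3 stimuli. The 3 tests share the same unstimulated libraries of each genotype, so this recurrence is not independent.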

How the results depend on the processing

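No paired analysis was possible because the labels carry no replicate numbers, and the numbers used here follow accession order. The count models planned as another tool were not run, since only 45.9% to 67.7% of low values were whole multiples of a step (within 0.01). Counts below are members called; reasons for a change were not tested.

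With library weights, nuclear counts rose to 51 (LPS plus IFN-γ) and 41 (PolyI:C) in wild type, to 21, 25 and 11 in CB2-/- (LPS plus IFN-γ, PolyI:C, CpG), to 29, 29 and 20 for the differences and to 15 between series (7 higher, 8 lower, a reversed split). The mt- counts were 7 for CpG in CB2-/- and 2 for the LPS plus IFN-γ difference. Without a series term, so that all 6 unstimulated wild-type libraries served as reference, mt- counts were 0, 6 and 1 in wild type, 2, 3 and 0 in CB2-/-, and 2 and 1 (reversed) for the LPS plus IFN-γ and PolyI:C differences. Both counts of 0 were also 0 at an unadjusted limma p under 0.05. The nuclear count for the CpG difference was 12. With LPS plus IFN-γ in wild type mt-Nd1 (0.0441), mt-Nd4 (0.0712), mt-Nd4l (0.0349) and mt-Nd6 (0.0872) turned positive, and mt-Co1 did with PolyI:C (0.23). With only the compared libraries, nuclear counts were 14 (PolyI:C) and 8 (CpG) in wild type, 17 (LPS plus IFN-γ) and 8 (CpG) in CB2-/-, 4 between genotypes and 1 between series (reversed); mt- counts were 4 and 4 for PolyI:C and CpG in CB2-/- and 2 for the LPS plus IFN-γ difference.

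With quantile scaling, nuclear counts were 22 (reversed, 9 higher and 13 lower) for LPS plus IFN-γ in wild type, 16 and 19 for LPS plus IFN-γ and PolyI:C in CB2-/- and 5 for the LPS plus IFN-γ difference. The mt- counts were 1 and 2 for CpG in wild type and CB2-/-, 2 (both higher, reversed) for the LPS plus IFN-γ difference and 8 for the PolyI:C difference. Atp5b turned to -0.0618 and -0.24 for LPS plus IFN-γ and PolyI:C in wild type, and the LPS plus IFN-γ differences of mt-Nd4 and mt-Cytb to 0.75 and 0.76. In the authors' batch-corrected table, nuclear counts were 20 (PolyI:C in CB2-/-), 15 and 25 (LPS plus IFN-γ and PolyI:C differences) and 27 (genotypes); mt- counts were 0 (CpG in CB2-/-; 4 lower at an unadjusted limma p under 0.05), 3, 8 and 2 (the 3 differences). Without the filter, 2 (CpG in CB2-/-) and 6 (genotypes) nuclear members were called. A pseudocount of 8 gave 2 mt- calls with CpG in CB2-/-. With copies added, CpG in CB2-/- had 3 mt- calls and the CpG difference 2, and mt-Co2 turned to -0.37 and -0.93 (LPS plus IFN-γ and PolyI:C in wild type), the PolyI:C difference of mt-Atp6 to 0.53 and Ndufs5 between genotypes to 0.0859.

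Without the 6 rich libraries, nuclear counts were 1 and 4 for LPS plus IFN-γ and PolyI:C in CB2-/-, 2 and 9 for their differences, 0 between genotypes and 5, all lower (reversed), between series; mt- counts were 3 (CpG in CB2-/-) and 2 (LPS plus IFN-γ difference). Lone libraries are then assumed to vary like the other groups. Taking medians instead of sums, the mt- to nuclear difference was -0.93 and -0.56 with PolyI:C in wild type and CB2-/-, and -1.47 between genotypes.

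Leaving out single libraries gave, for nuclear members, 20 to 27, 17 to 26 and 15 to 25 calls in wild type (the lowest for CpG without unstimulated replicate 1), 4 to 7, 5 to 8 and 2 to 4 in CB2-/-, 5 to 10, 11 to 18 and 4 to 13 for the differences, 4 to 17 between genotypes and 6 to 15 between series. The split turned to more lower than higher between genotypes without wild-type replicate 4 (17), and between series without wild-type replicate 1 (6) or 5 (8). For mt- members the ranges were 5 to 7, 10 to 10 and 0 to 1 in wild type, 6 to 10, 5 to 10 and 0 to 2 in CB2-/-, 0 to 2, 3 to 6 and 0 to 1 for the differences, 9 to 9 between genotypes and 9 to 11 between series. The single-gene calls most often lost were Ndufs8 and mt-Co3 (LPS plus IFN-γ in CB2-/-), lost in 6 of 6 fits. Lost in 5 of 6 were Ndufb10 and Ndufb11 (CpG in wild type) and Ndufc1 and Cox7a2l (genotypes). So were Ndufb2 (CpG), mt-Atp6 (PolyI:C) and Uqcr11 (LPS plus IFN-γ and PolyI:C) in CB2-/-. Among the differences, mt-Nd6 (9 of 12 fits) and Ndufb11 (8 of 12), both with PolyI:C, were lost most often. The Ndufs5 call between genotypes was lost without CB2-/- replicate 2 or wild-type replicate 5. Reads per library are unknown, and the low values of the isoforms Cox6a2, Cox4i2 and Cox7a1 limit their precision.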
